A study of Mus musculus with 18 samples.

Results

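Cadherins are the calcium-dependent proteins by which neighbouring cells hold on to each other, and 8 of their genes were followed here through reprogramming: Cdh1, Cdh2, Cdh3, Cdh5, Cdh6, Cdh11, Cdh13 and Cdh15. They are 8 of 22180 mouse genes measured on 18 microarrays, and of 23 measured genes with a numbered Cdh symbol. Where a gene had more than 1 probe set, the brightest on average across the 18 arrays was used. A gene was tested if 3 or more of the 12 time-course arrays read it at or above their median; all 8 passed, among 13865 genes. Cdh5 reached the median on 16 of the 18 arrays and the other members on all 18. Each median was taken over all probe sets of the array, including controls and those without a gene symbol. A member could therefore reach it and lie below most genes. Cdh1 in uninduced fibroblasts, for instance, read above 43.4% of measured genes.

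The cells were embryonic fibroblasts of the reprogrammable mouse (Rep-MEFs, strain Black6-129X1/SvJ), in which the factors Oct4, Klf4, Sox2 and Myc (OKSM) are switched on with dox. One arm expressed OKSM alone and the other expressed OKSM in the presence of AGi, that is ascorbic acid with an inhibitor of the kinase GSK3, and each arm was read as a bulk population on days 2, 4, 6, 8, 10 and 12. The remaining 6 arrays were single samples of Rep-MEFs without dox, wild-type embryonic stem cells (ESCs), granulocyte-macrophage progenitors (GMPs), iPSC lines derived from fibroblasts after 96 h of induction (Fibroblast-iPSC) and from GMPs after 48 h (GMP-iPSC), and Thy1-positive cells, called refractory, sorted on day 3 of OKSM. No condition was repeated. The errors and p-values below therefore measure the spread between days within the time course, and comparisons of single arrays carry no test. The cultures were bulk, so fewer cells of a type and less RNA per cell cannot be told apart.

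Fibroblasts hold together loosely through N-cadherin (Cdh2) and cadherin-11 (Cdh11), whereas pluripotent stem cells grow as tight epithelial colonies held by E-cadherin (Cdh1). The cytoplasmic tails of these classical cadherins bind p120 and beta-catenin, and alpha-catenin links the complex to actin. An early event of fibroblast reprogramming is a mesenchymal-to-epithelial transition, in which the Snail, Zeb and Twist repressors of Cdh1 are known to lose ground. GSK3, the target of the inhibitor, marks free beta-catenin for destruction.

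The labels of the GMP, ESC and MEF arrays were borne out by their defining markers. On the log2 scale of the arrays, the GMP array read 12.93 for Mpo and the uninduced MEF array 6.37, the ESC array read 12.26 for Nanog against 6.09, and the MEF array read 11.63 for Thy1 against 8.44 in ESCs. Fibroblast-iPSCs read 12.32 and GMP-iPSCs 12.27 for Nanog. The fibroblast collagen gene Col1a1 was not at its lowest there, at 10.70 in Fibroblast-iPSCs, 8.75 in GMP-iPSCs and 9.52 in ESCs. It read 12.60 in MEFs and 7.02 in GMPs. The array medians lay between 6.32 and 6.46. The hybridisation controls are spiked in and carry no cellular RNA. Their 18 probe sets were all brighter in the AGi arm, by 0.06 to 0.26, with a mean of 0.17 ± 0.07 (SD over 6 days, exact two-sided sign-flip permutation p = 0.03125). A member difference between the arms was therefore also tested with limma against the largest control difference.

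Against the spread between days, 2 members were higher with AGi and 5 were lower, and Cdh15 did not pass the threshold (limma, adjusted p under 0.05 over all genes tested). Cdh1 and Cdh3, the E- and P-cadherin of epithelia, were the 2 that were higher. Cdh2, Cdh5, Cdh6, Cdh11 and Cdh13 were lower. The background of this comparison was 19.6% of tested genes called higher and 19.3% called lower. The median AGi effect over the members was −0.71 and that over all tested genes 0.001. With every array centred on its hybridisation controls, which moved the median of all genes by −0.17, the split over all genes went from 2722 higher and 2675 lower to 1055 higher and 5279 lower. The 7 member calls and their directions were the same under that centring.

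**Figure D1:**
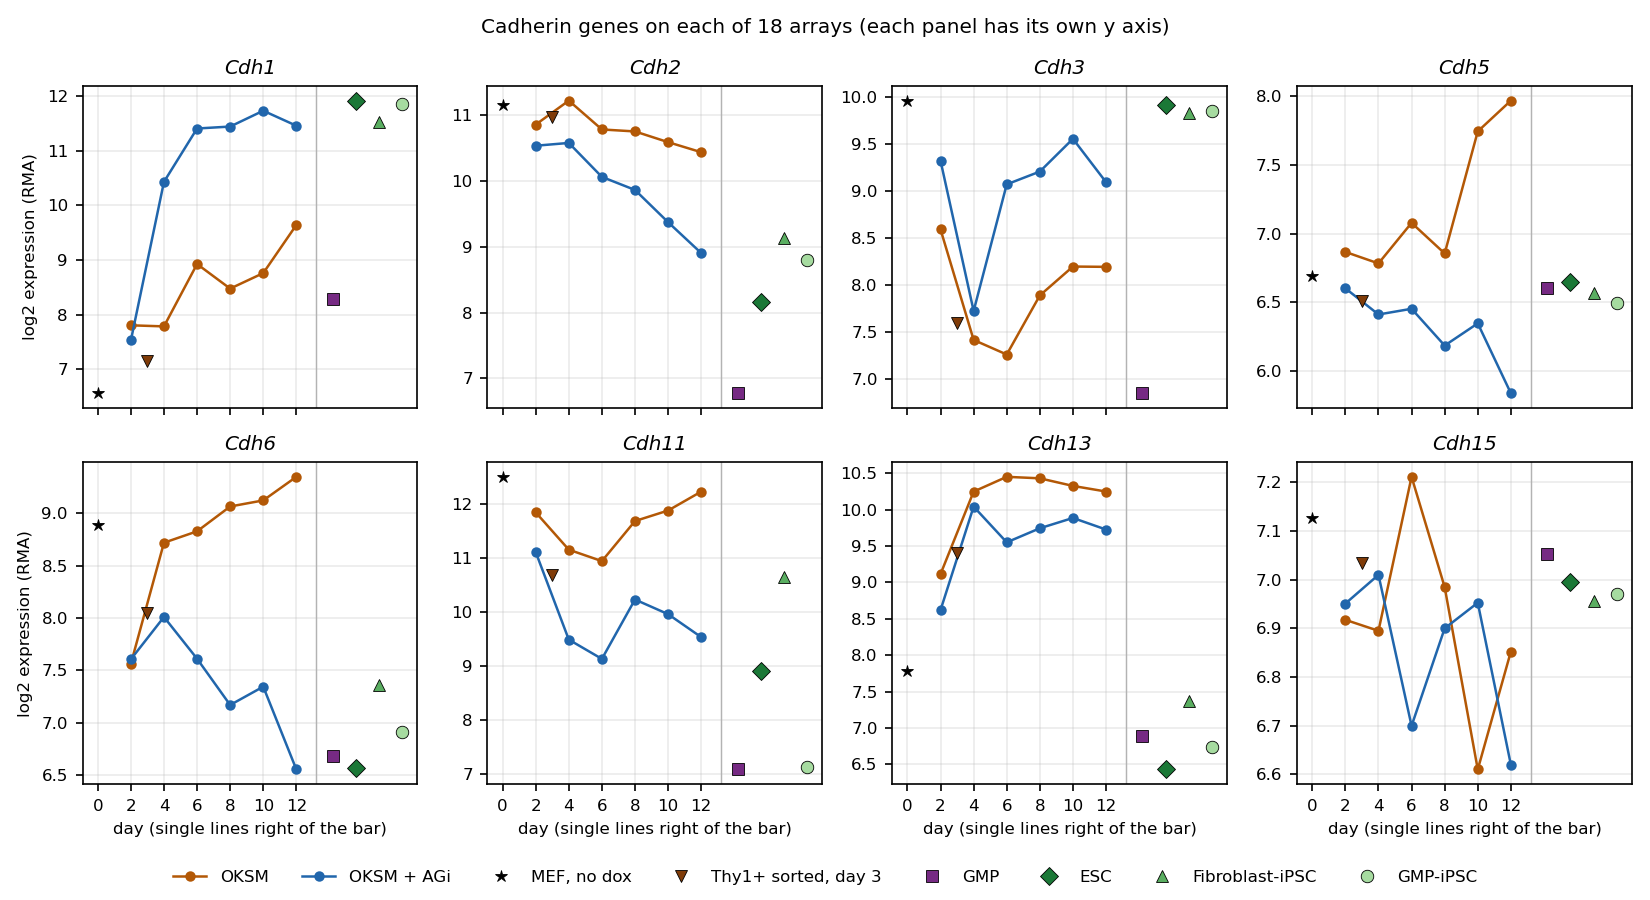
Log2 expression (RMA values, y axis, scaled separately in each panel) of the 8 cadherin genes on each of the 18 arrays, by day on the x axis, with OKSM in orange and OKSM plus AGi in blue, 1 array per point. The star at day 0 is the MEF array without dox, the triangle at day 3 the sorted Thy1-positive cells, and the symbols right of the bar are the GMP, ESC and iPSC arrays. Cdh1 with AGi reached 11.40 on day 6, near the 11.91 of ESCs, while Cdh2 with AGi went from 10.54 on day 2 to 8.91 on day 12.

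Cdh1 encodes E-cadherin, the adhesion protein of epithelia and of pluripotent colonies. Its log2 level was 6.56 in uninduced MEFs, 8.29 in GMPs, 11.91 in ESCs, 11.53 in Fibroblast-iPSCs and 11.85 in GMP-iPSCs. With OKSM alone it read 7.80, 7.78, 8.92, 8.47, 8.76 and 9.64 on days 2, 4, 6, 8, 10 and 12. With AGi it read 7.53, 10.43, 11.40, 11.44, 11.73 and 11.45 on the same days. From day 4 on, every AGi array lay above every array without AGi, and from day 6 the values lay near those of the pluripotent lines. The arms overlapped on account of day 2.

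The difference between the arms for Cdh1 was −0.28 on day 2 and then 2.64, 2.48, 2.96, 2.97 and 1.82. The AGi effect was 2.10 ± 0.40 (log2, limma SE, n = 6 days), a 4.28-fold higher mean level, on 5 of 6 days (adjusted p = 0.0061). It held against the largest control difference (limma's treat test, adjusted p = 0.0223). The other probe set of Cdh1 gave a smaller effect of 1.35 ± 0.23, called as well (adjusted p = 0.0041). Over the 18 alternatives of this test the adjusted p of Cdh1 ran from 0.0002 to 0.119, and the call was lost with days 2 to 6 only, where the effect was 1.62.

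Between days 2 and 12, Cdh1 rose with AGi by 0.34 ± 0.08 per day (log2, limma SE, adjusted p = 0.0188), against a background of 10.5% of genes rising and 8.23% falling in that arm. Most of this lay in the step after day 2. Without day 2 the slope was 0.12 and not called, and without day 10 it was 0.33 and not called (adjusted p from 0.0062 to 0.265 over its alternatives). With OKSM alone the slope of Cdh1 was 0.17 ± 0.08 and not past the threshold (adjusted p = 0.234). The difference of the slopes was 0.17 ± 0.12, with a 95% interval from −0.09 to 0.43 (adjusted p = 0.504).

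Cdh3 encodes P-cadherin, a classical cadherin of placenta and basal epithelium whose gene is the next protein-coding neighbour of Cdh1 on chromosome 8 in RefSeq (GRCm38.p6). Its level differed little between the ends of the process: 9.96 in MEFs, 9.91 in ESCs, 9.83 in Fibroblast-iPSCs and 9.84 in GMP-iPSCs. GMPs, at 6.85, were the low array. With OKSM alone it read 8.59, 7.42, 7.26, 7.89, 8.20 and 8.19, and with AGi 9.32, 7.73, 9.07, 9.20, 9.55 and 9.09. All 12 time-course arrays thus lay below both the MEF and the pluripotent arrays, with the low point on day 6 without AGi and on day 4 with it.

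The Cdh3 difference between the arms was 0.73, 0.31, 1.80, 1.31, 1.35 and 0.90 by day. The AGi effect was 1.07 ± 0.18 on 6 of 6 days (adjusted p = 0.0037, and 0.0210 against the largest control difference), with overlap of the arms on account of day 4. Over 18 alternatives the adjusted p of Cdh3 ran from 0.0022 to 0.0805. The call was lost with days 2 to 6 only, at an effect of 0.95. No slope of Cdh3 was called in either arm.

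Cdh2 encodes N-cadherin, the cadherin of mesenchyme, nerve and heart muscle. Its level was 11.15 in MEFs, 8.16 in ESCs, 9.14 in Fibroblast-iPSCs, 8.80 in GMP-iPSCs and 6.77 in GMPs. With OKSM alone it read 10.86, 11.22, 10.79, 10.76, 10.59 and 10.44, so that no array of that arm came below 10.44. With AGi it read 10.54, 10.58, 10.06, 9.87, 9.38 and 8.91, and the day 12 value lay between ESCs and Fibroblast-iPSCs. The arms overlapped only in that days 2 and 4 with AGi were above day 12 without it.

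The gap in Cdh2 was wider on each later day: −0.32, −0.64, −0.72, −0.89, −1.22 and −1.53. Its mean gave an AGi effect of −0.89 ± 0.15, or 1.85-fold lower, on 6 of 6 days (adjusted p = 0.0037, and 0.0260 against the largest control difference), and the call was kept in all 18 alternatives. The other probe set of Cdh2 gave −0.82 ± 0.13 (adjusted p = 0.0030). With AGi, Cdh2 fell by 0.17 ± 0.02 per day (adjusted p = 0.0003), and this call was kept without any one day. With OKSM alone the slope was −0.06 ± 0.02 and missed the threshold (adjusted p = 0.0911). The slope difference of −0.11 ± 0.03 missed it as well (adjusted p = 0.0539, from 0.0095 to 1 over 17 alternatives), and was called in 4 of them, one being the fit without day 2.

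Cdh11 encodes cadherin-11 or OB-cadherin, the mesenchymal cadherin of osteoblasts and connective tissue. It read 12.50 in MEFs, 8.91 in ESCs, 10.65 in Fibroblast-iPSCs, 7.13 in GMP-iPSCs and 7.09 in GMPs. With OKSM alone the values were 11.84, 11.15, 10.94, 11.68, 11.88 and 12.23, a dip to day 6 followed by higher values up to near the MEF level. With AGi they were 11.11, 9.49, 9.14, 10.23, 9.96 and 9.54, lowest on day 6.

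The Cdh11 difference was −0.73, −1.66, −1.81, −1.45, −1.91 and −2.69 by day. The AGi effect was −1.71 ± 0.21, or 3.27-fold lower, on 6 of 6 days (adjusted p = 0.0015, and 0.0054 against the largest control difference), called in all 18 alternatives. The arms overlapped only through day 2 with AGi. No slope of Cdh11 was called in either arm, and the lowest value of each arm was that of day 6. The mean level of the 16 fibroblast markers measured was, like Cdh11, higher on day 8 than on day 6. It was 10.82 in MEFs, 9.59 on day 6 and 10.85 on day 8 with OKSM alone, and 8.94 and 9.95 with AGi. Unlike Cdh11, these markers had their lowest mean on day 4, at 9.56 with OKSM alone and 8.54 with AGi. With AGi their mean was 10.19 on day 12, above day 8, whereas Cdh11 was lower on day 12 than on day 8. Of these 16 markers, 13 were lower with AGi, Thy1 among them at −0.91, and 0 were higher. Among 16 macrophage markers the mean went from 6.63 to 7.77 between days 6 and 8 with OKSM alone and from 6.47 to 6.94 with AGi. Of the 13 macrophage markers tested, 8 were lower with AGi and 1 higher. The part of either cell type in the cadherin values was not tested.

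Cdh6 encodes K-cadherin, a type II cadherin of kidney and neural crest. Its level was 8.89 in MEFs and 6.56, 7.36 and 6.91 in ESCs, Fibroblast-iPSCs and GMP-iPSCs, with 6.68 in GMPs. On day 2 both arms were low and close together, at 7.56 with OKSM alone and 7.61 with AGi. Thereafter the arms went apart: with OKSM alone the values were 8.72, 8.83, 9.07, 9.12 and 9.35 on days 4 to 12, and with AGi 8.01, 7.61, 7.17, 7.35 and 6.55. On day 12 the OKSM array lay above the MEF array and the AGi array at the level of ESCs.

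By day the Cdh6 difference was 0.04, −0.71, −1.22, −1.90, −1.78 and −2.79. The AGi effect was −1.39 ± 0.33 on 5 of 6 days (adjusted p = 0.0127). Against the largest control difference it missed the threshold (adjusted p = 0.0537), as it did with days 2 to 6 only, at −0.63 (from 0.0018 to 0.129 over 18 alternatives).

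Cdh6 rose with OKSM alone by 0.15 ± 0.03 per day (adjusted p = 0.0249) and fell with AGi by 0.11 ± 0.03 per day (adjusted p = 0.0470). Its slope difference was −0.26 ± 0.05 (adjusted p = 0.0173). These slope calls were not kept in every fit that left out a day, and why was not tested. The slope difference was lost without day 8, without day 10 or without day 12 (between −0.28 and −0.24 over the 6 fits that left out a day). The OKSM slope was lost without day 2, where it was 0.08, and without day 8, 10 or 12. The AGi slope was lost without any one of days 4, 6, 8, 10 and 12, and was −0.07 without day 12.

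Among the 8 members, promoter sequences were at hand for Cdh6, which differed between the arms, and Cdh15, which did not pass the test, and they are shown to set a responding gene beside a flat one. Each runs from 250 bases before to 50 after the annotated start, 5′ to 3′ on the gene's strand, from RefSeq (GRCm38.p6): Cdh6 at chr15:13173626-13173925 on the minus strand and Cdh15 at chr8:122848124-122848423 on the plus strand. Capitals mark CANNTG, the E-box core that Snail, Zeb and Twist proteins are known to bind.
Cdh6: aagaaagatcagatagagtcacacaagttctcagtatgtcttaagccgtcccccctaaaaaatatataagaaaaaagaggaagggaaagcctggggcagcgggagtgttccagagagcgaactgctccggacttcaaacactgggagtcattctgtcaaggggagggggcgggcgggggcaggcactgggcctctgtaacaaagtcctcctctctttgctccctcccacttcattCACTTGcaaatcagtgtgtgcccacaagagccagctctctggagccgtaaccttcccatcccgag
Cdh15: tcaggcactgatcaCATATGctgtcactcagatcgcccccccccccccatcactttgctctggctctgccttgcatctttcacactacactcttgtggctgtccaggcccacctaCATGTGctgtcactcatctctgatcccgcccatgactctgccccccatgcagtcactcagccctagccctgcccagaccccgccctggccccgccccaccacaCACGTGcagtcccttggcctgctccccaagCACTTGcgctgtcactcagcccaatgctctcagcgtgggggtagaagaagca

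The E-box core CANNTG, which reads the same on both strands in this notation, occurred 1 time in the Cdh6 window, as CACTTG, and 4 times in that of Cdh15, 1 of them again as CACTTG and another as CACGTG. Of 32851 promoters of the same length, 72.3% held it. The form CACCTG, which is a special case of CANNTG and was searched on both strands, was found in neither window and in 20.2% of all promoters. The GC box GGGCGG, on either strand, occurred 2 times in Cdh6, overlapping each other, and 3 times in Cdh15 (35.7% of all promoters had one). A CCAAT box was found 1 time in Cdh15 and not in Cdh6 (37.4% of all). GC content was 53.0% for Cdh6 and 61.3% for Cdh15, beside a median of 52.7% over all promoters.

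Cdh5 encodes VE-cadherin, the junction protein of blood vessel endothelium, and is the protein-coding neighbour of Cdh11 on chromosome 8. In the reference cells it stayed near the array median, at 6.69 in MEFs, 6.60 in GMPs and 6.65, 6.57 and 6.49 in ESCs, Fibroblast-iPSCs and GMP-iPSCs. With OKSM alone it read 6.87, 6.78, 7.08, 6.85, 7.75 and 7.97, with the high values on days 10 and 12. With AGi it read 6.60, 6.41, 6.45, 6.18, 6.34 and 5.83, the last being the lowest of all 18 arrays. Every AGi array lay below every OKSM array. Cdh5 was the only member whose arms did not overlap, and 5.44% of tested genes had this pattern with AGi lower and 5.97% with AGi higher.

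The Cdh5 difference widened from −0.27 on day 2 through −0.37, −0.63, −0.67 and −1.40 to −2.14 on day 12. The AGi effect was −0.91 ± 0.24 on 6 of 6 days (adjusted p = 0.0189). It was lost without day 10 (−0.81, adjusted p = 0.0613) and against the largest control difference (adjusted p = 0.106, within 0.0063 to 0.106 over 18 alternatives). Cdh5 rose with OKSM alone by 0.12 ± 0.03 per day (adjusted p = 0.0200), in an arm where 5.11% of genes rose and 3.87% fell. The slope with AGi was −0.06 ± 0.03 and not past the threshold (adjusted p = 0.118).

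The slope difference of Cdh5 was −0.18 ± 0.04 (adjusted p = 0.0254). Cdh5 and Cdh6 were the 2 members whose slopes differed between the arms, both lower with AGi, where the background was 1.76% of genes with a higher and 1.30% with a lower slope. The call on Cdh5 was lost without day 4, 6, 10 or 12 (between −0.21 and −0.13), and that on its OKSM slope without day 4, 10 or 12.

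Endothelial markers were read beside Cdh5. Over 14 of them the mean level was 6.73 and 6.83 on days 10 and 12 with OKSM alone, within the range of 6.73 to 6.97 of that arm, and 6.63 to 6.82 with AGi. Of the 7 tested, 2 were lower with AGi, Tek at −0.83 and Erg at −0.75, and 0 were higher. When centred on the hybridisation controls 5 of 7 were lower, where 38.1% of all tested genes were. Kdr, the VEGF receptor that defines endothelium, reached the array median on 1 of 12 time-course arrays and read 6.25 and 6.12 on days 10 and 12 of OKSM. Pecam1 read 6.18 and 6.62 there, against 6.71 in MEFs. With AGi Pecam1, which is part of the list mean, reached 9.12. It was also high in ESCs, at 9.76, Fibroblast-iPSCs, at 9.53, and GMP-iPSCs, at 9.38. Tek, a receptor of endothelium, was high on every OKSM array, at 10.16 to 10.36 against 5.33 in MEFs. Erg read 6.23 to 8.02 with OKSM alone and 6.08 to 7.06 with AGi, against 6.79 in MEFs. The part of endothelial cells in the Cdh5 values was not tested.

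Cdh13 encodes T-cadherin, a member without a cytoplasmic tail that is held in the membrane by a lipid anchor. It did not lie between the fibroblast and the pluripotent level during the time course. It read 7.78 in MEFs, 6.43 in ESCs, 7.37 in Fibroblast-iPSCs, 6.74 in GMP-iPSCs and 6.89 in GMPs. With OKSM alone the values were 9.12, 10.25, 10.45, 10.43, 10.33 and 10.25, and with AGi 8.62, 10.04, 9.55, 9.75, 9.89 and 9.73. All 12 arrays with OKSM were above the MEF array and all 3 pluripotent arrays below it.

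Against this, the gap between the arms was small. The AGi effect on Cdh13 was −0.54 ± 0.09, or 1.46-fold lower, on 6 of 6 days (adjusted p = 0.0037). It missed the threshold against the largest control difference (adjusted p = 0.0729), without a day term (0.145) and with days 2 to 6 only (0.0647), the lowest over 18 alternatives being 0.0011. On day 12 with AGi, Cdh13 was still 2.88 above the mean of the pluripotent arrays, and it was the 1 member of 8 at least 1 log2 away from it, where 7.72% of tested genes were at least 1 log2 higher and 1.83% lower.

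Cdh15 encodes M-cadherin, the cadherin of muscle satellite cells and myoblasts. It varied by 0.60 over the 18 arrays, from 6.61 to 7.21, a range larger than that of 29.7% of all measured genes. The range of Cdh11 was 5.41 and that of Cdh1 5.35. The AGi effect on Cdh15 was −0.06 ± 0.11, higher on 3 days and lower on 3, with a 95% interval from −0.31 to 0.19 (adjusted p = 0.709). Of 7 skeletal muscle markers tested, 0 were called for the AGi effect with limma. When the arrays were centred on the hybridisation controls 3 were called lower, where 38.1% of all tested genes were. The mean over 14 of them was 6.19 to 6.34 with OKSM alone and 6.14 to 6.27 with AGi.

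**Figure D2:**
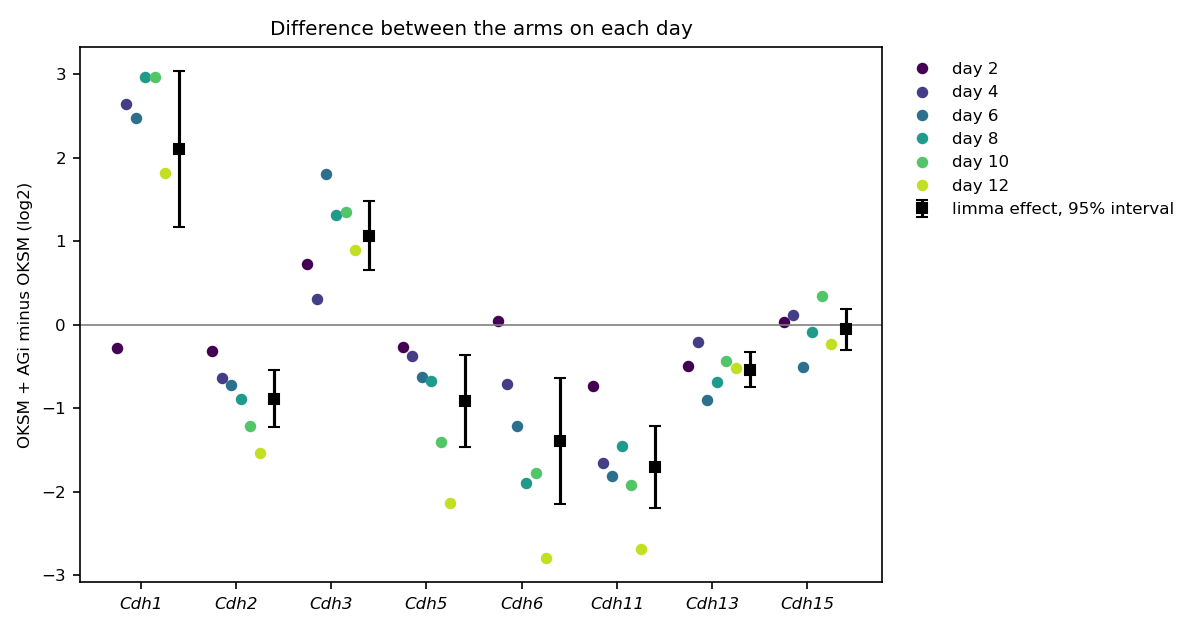
Difference in log2 expression between OKSM plus AGi and OKSM alone (y axis) for each cadherin gene (x axis), with 1 dot per day coloured from day 2 (dark) to day 12 (yellow) and the limma effect over 6 days as a black square with its 95% interval. Cdh1 stands at −0.28 on day 2 and at 1.82 or more afterwards, Cdh5 and Cdh6 are most negative on day 12, and the interval of Cdh15 includes 0.

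How far each arm went from the fibroblast to the pluripotent level was expressed as a position, with the MEF array at 0% and the mean of the 3 pluripotent arrays at 100%. This was done for the members whose ends differed by at least 1 log2. Cdh1 was higher in the pluripotent lines by 5.20, and Cdh2, Cdh6 and Cdh11 differed by −2.46, −1.94 and −3.60. Cdh3, Cdh5, Cdh13 and Cdh15 differed by −0.10, −0.12, −0.93 and −0.15 and have no position. For Cdh13 this turned on the array used, with −1.35 against ESCs alone, −1.04 against GMP-iPSCs and −0.41 against Fibroblast-iPSCs. Of all tested genes, 10.6% were at least 1 log2 higher in the pluripotent lines and 12.4% at least 1 log2 lower.

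With AGi, Cdh1 stood at 18.6%, 74.3%, 93.1%, 93.8%, 99.3% and 94.0% on days 2 to 12. Cdh11 stood at 38.6%, 83.5%, 93.4%, 62.9%, 70.4% and 82.2%, so that it came back towards the fibroblast level on day 8. Cdh2 moved later, at 25.1%, 23.4%, 44.4%, 52.5%, 72.4% and 91.6%. The pluripotent arrays differed widely in Cdh11, so that its day 4 position was 162% with Fibroblast-iPSCs alone as the end and 56.0% with GMP-iPSCs alone. On that day Cdh1 stood at 72.2% to 77.8% and Cdh2 at 19.2% to 28.4% over the 3 single ends. Cdh6 stood at 65.9%, 45.1%, 65.6%, 88.4%, 79.4% and 120.2%.

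With OKSM alone, Cdh1 reached 59.2% on day 12, from 23.9%, 23.5%, 45.4%, 36.8% and 42.2% on the earlier days. Cdh2 went no further than 29.1%, on day 12. Cdh11 stood at 43.2% on day 6 and back at 7.6% on day 12. Cdh6 went from 68.1% on day 2 to 8.5% on day 4 and −23.9% on day 12, beyond the fibroblast end. On day 12 with AGi, the 3 single ends gave 75.1% to 111% for Cdh2, 100.4% to 153% for Cdh6, 55.2% to 160% for Cdh11 and 91.4% to 98.5% for Cdh1.

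**Figure D3:**
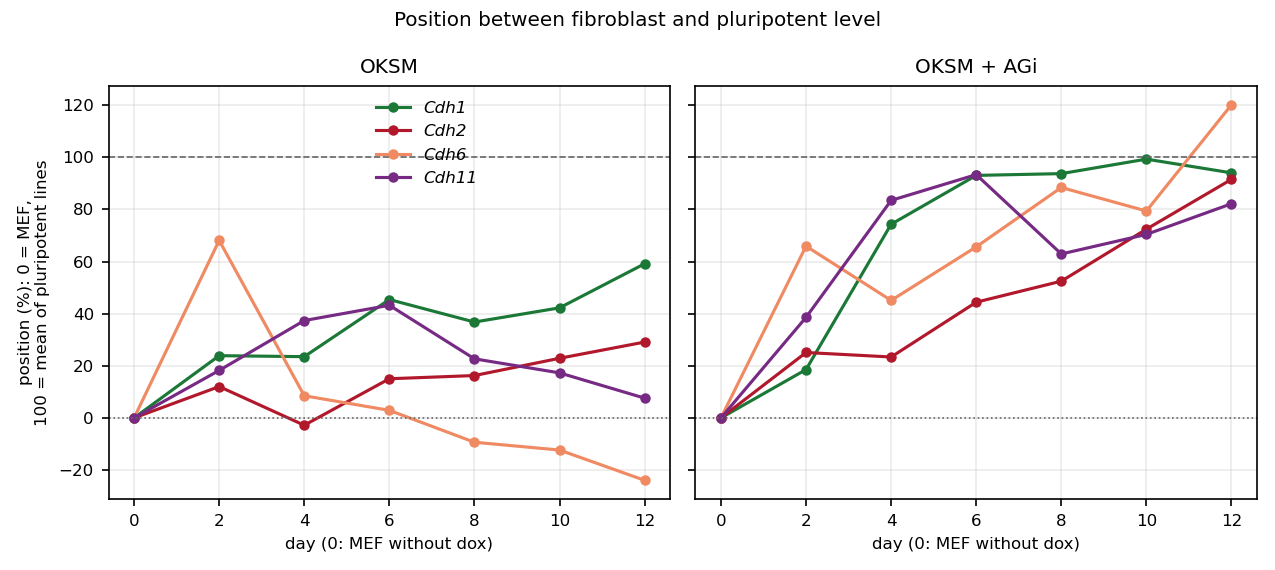
Position in percent (y axis) of Cdh1, Cdh2, Cdh6 and Cdh11 between the MEF array (0, dotted line) and the mean of the 3 pluripotent arrays (100, dashed line), by day (x axis), with OKSM alone on the left and OKSM plus AGi on the right, 1 array per point. With AGi on day 12 the 4 genes lie between 82.2% and 120.2%, and with OKSM alone between −23.9% and 59.2%.

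The sorted Thy1-positive cells of day 3 kept a fibroblast reading for some members and not for others. Cdh1 read 7.15 in them, 0.59 above MEFs and below both neighbouring OKSM days, which read 7.80 and 7.78. Cdh2 read 10.97, −0.18 from MEFs. Cdh6 read 8.05 and Cdh5 6.51. Cdh11 read 10.68, a difference of −1.82 from MEFs and a position of 50.5%, while that of Cdh1 was 11.4% and that of Cdh2 7.5%. Cdh3, at 7.60, was −2.36 from MEFs, and Cdh13, at 9.40, was 1.63 above them. Among the members, 1 was thus at least 1 log2 higher and 2 at least 1 log2 lower than in MEFs, where 4.04% and 3.12% of tested genes were.

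The iPSC lines differed from each other mainly in Cdh11. Fibroblast-iPSCs read 3.52 higher than GMP-iPSCs for Cdh11, with the ESC array between them, and no other member differed by 1 log2. Of tested genes, 1.75% were at least 1 log2 higher in Fibroblast-iPSCs and 0.368% lower. The mean of the 16 fibroblast markers was 9.12 in Fibroblast-iPSCs, 7.65 in GMP-iPSCs and 8.28 in ESCs, in the same order as Cdh11. Whether fibroblasts in the cultures account for that order was not tested.

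The starting cells of the iPSC lines differed in more members. GMPs, which are blood progenitors and grow in suspension, were lower than MEFs by at least 1 log2 in 4 members and higher in 1, where the background was 13.0% lower and 9.41% higher. The lower ones were Cdh11 at −5.41, Cdh2 at −4.38, Cdh3 at −3.10 and Cdh6 at −2.20. Cdh1 was 1.73 higher in GMPs than in MEFs.

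The genes whose level followed a member most closely over the 18 arrays were listed by Pearson's r as a description. Of the 18 arrays, 12 come from the same 2 arms, so the points are not independent. For Cdh1 these were Bex4 (r = 0.983) and Epcam (r = 0.971), an epithelial adhesion molecule, and over the 12 time-course arrays Ocln, the tight junction protein occludin, stood at 0.983. For Cdh11 they were the matrix genes Col5a2 (0.950) and Lox (0.947), a collagen crosslinking enzyme, followed by the protocadherin Pcdh19 (0.943). Cdh2 was nearest to Vgll3 (0.978), Cdh13 to Gpm6b (0.965) and the integrin Itgb4 (0.954), Cdh5 to the calcium channel gene Cacna1d (0.941) and Cdh6 to P3h2 (0.938). The nearest gene to Cdh3, Ttc26, stood at 0.889, and that to Cdh15, Dapk2, at 0.924.

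Relatives of the members were read with the same AGi test. Of 4 further classical cadherins tested, 2 were lower with AGi, Cdh10 at −1.02 and Cdh18 at −0.79, and 0 were higher. Cdh10, which read 9.84 in MEFs, was between 6.30 and 7.63 with OKSM alone and between 4.73 and 7.53 with AGi. Of 5 other cadherins tested, 3 were lower, led by Cdh26 at −0.89, and 0 higher. Of 15 protocadherins and giant cadherins, 8 were lower, led by Fat4 at −1.85, Pcdh18 at −1.54 and Pcdh19 at −1.53, and 1 was higher, Celsr1 at 0.48, a planar polarity cadherin.

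Desmosomal genes, whose cadherins tie epithelial cells through keratin filaments, went the other way: 5 of 8 were higher and 1 was lower. Dsg2, desmoglein-2, had an effect of 1.61 and read 5.35 on day 2 and 9.10 on day 12 with AGi, against 5.26 and 5.79 with OKSM alone. Dsc2, desmocollin-2, was higher by 1.07 and Dsp, desmoplakin, by 0.86. Jup, the plaque protein plakoglobin, was the lower one, at −0.41.

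The catenins that bind cadherin tails did not all move one way. Ctnnb1, beta-catenin, had an effect of −0.08 and was not called (adjusted p = 0.298), with values of 11.74 to 11.99 with OKSM alone and 11.69 to 11.95 with AGi. Ctnna1, alpha-catenin, was lower at −0.52, Ctnnd1, p120, at −0.39 and Vcl, vinculin, at −0.85, while Ctnnd2 was higher by 0.72. Of the whole list, 3 of 15 catenins and linkers were higher and 6 lower, beside 19.6% and 19.3% of all tested genes.

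Of 23 epithelial junction partners, 16 were higher and 1, Tjp1, lower. Epcam was higher by 2.40, St14, a membrane protease, by 2.00 and Cldn6, a claudin, by 1.94. Epcam read 5.55, 8.30, 9.73, 10.52, 11.16 and 10.72 by day with AGi by comparison with a range of 5.69 to 8.79 without. It shared with Cdh1 the low day 2 value and the high values from day 4 on.

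Of 12 repressors of Cdh1, 5 were lower with AGi and 0 higher. Snai2, Slug, had an effect of −1.20 and Zeb1 one of −0.64. Snai1, Snail, at −0.40, read 10.19 in MEFs, 8.12 on day 2 and 9.77 on day 12 with OKSM alone, and 8.24 and 9.26 with AGi. On day 2, when Cdh1 read 7.80 and 7.53 in the arms, Snai2 read 10.68 with OKSM alone and 9.97 with AGi. On day 4 Snai2 read 10.84 and 9.15. With AGi it then read 9.41, 10.32, 10.30 and 10.42 on days 6 to 12, above its day 2 value from day 8. Cdh1 with AGi read 11.40, 11.44, 11.73 and 11.45 on those days. A link between Snai2 and Cdh1 was not tested. Twist2, at −0.75, and Prrx1, at −0.68, were the others called.

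Activators of epithelial genes were split, with 6 of 15 higher and 3 lower. Grhl3, a grainyhead factor, was higher by 1.87 and Elf3, an epithelial ETS factor, by 1.76, whereas Ehf, a related factor, was lower at −1.72. Of 9 proteases that cleave cadherins, 2 were lower, Adam10 at −0.34 and Adam15 at −0.37, and 0 higher. The count of lower proteases is near the 19.3% of all tested genes called lower. Under the centring on hybridisation controls the counts became 0 of 15 protocadherins higher and 12 lower, 3 of 8 desmosomal genes higher and 1 lower, 2 of 15 catenins and linkers higher and 10 lower, 12 of 23 junction partners higher and 2 lower, 9 of 12 repressors lower, and 5 of 9 proteases lower. Of all tested genes, 7.61% were called higher and 38.1% lower under that centring. No called gene of any list changed direction.

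**Figure D4:**
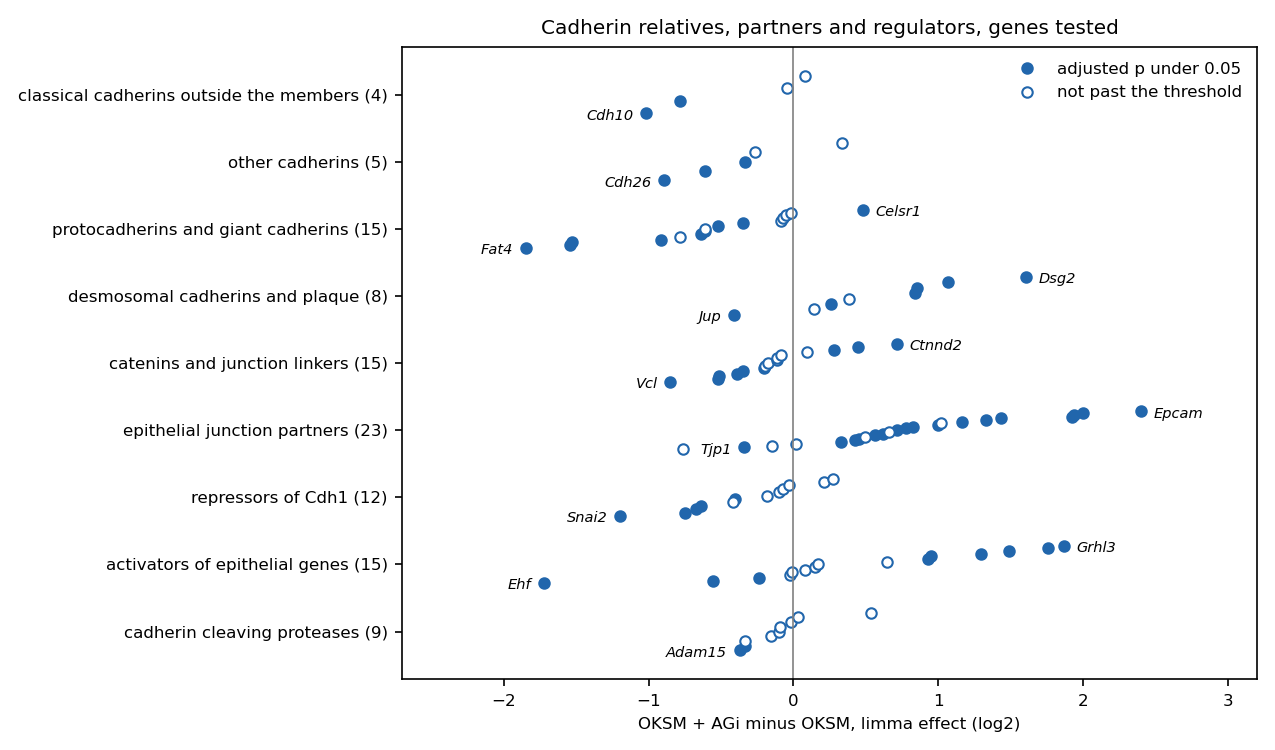
AGi effect in log2 (x axis, limma, OKSM plus AGi minus OKSM) of every tested gene in 9 lists of cadherin relatives, partners and regulators (y axis, number tested in brackets), filled where the adjusted p was under 0.05. Genes of each list are spread by rank in the vertical, and the most negative and most positive called genes are named. The junction partners run up to 2.40 for Epcam, and the protocadherins down to −1.85 for Fat4.

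Other cell types that cultures could hold were read as lists too. Smooth muscle markers were lower with AGi in 8 of 10 and neural progenitor markers in 1 of 6, Fabp7 at −2.97. Keratinocyte markers were lower in 1 of 3 and GMP markers in 4 of 8, with 1 GMP marker, Kit, higher. Beside these, 19.3% of all tested genes were called lower and 19.6% higher. Under the centring on hybridisation controls 2 of 6 neural progenitor markers were lower, where 38.1% of all tested genes were. Both neural progenitor counts were near the share of all genes. Of 14 pluripotency markers, 7 were higher and 0 lower, and their mean level on day 12 was 10.30 with AGi and 7.96 with OKSM alone. Sox2, at 2.07, was among the 7 and is also 1 of the factors switched on with dox. On day 12 Cdh1 read 11.45 with AGi and 9.64 with OKSM alone. On day 4 the same markers averaged 6.90 with AGi, against 6.58 in MEFs, while Cdh1 with AGi read 10.43.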

How the data were processed

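Biotin-labelled total RNA was read on whole-transcript Affymetrix mouse arrays, according to the labels. The authors deposited log2 expression values for each probe set; the submitters' processing notes name RMA in Affymetrix Expression Console. No source used here gives RMA settings, scan dates or the build.

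Of 41345 probe sets, 190 were controls, and of the others 23521 had 1 gene symbol in the platform annotation, 1814 several and 15820 none. Symbols were updated through RefSeq, and each of 22180 genes took its brightest probe set. Tests used limma 3.58.1 (R 4.3.3; lmFit, eBayes, Benjamini-Hochberg over 13865 genes, threshold 0.05), with day as a block for the AGi effect (5 residual degrees of freedom) and arm, day and their product for slopes (8). Neither the labels nor the sources say that days were separate cultures, so p-values measure the spread between days, which may be technical. Alternatives were other filters, probe sets, normalizations, variance models and day terms, and leaving out each day; a separate level for days 8 to 12, the other probe sets of Cdh1 and Cdh2 and either iPSC line as the end of the positions were added after seeing the data. The fits were tested on simulated data. The members and gene lists were chosen with earlier results of these data known. The rule for named genes took all members, the genes most correlated with each, and from each list up to 3 called genes with the largest effect, plus the catenins Ctnnb1, Ctnna1 and Ctnnd1, the repressors Snai1, Snai2 and Zeb1, Epcam and the defining markers. Celsr1, Jup and Tjp1 were named after their values were seen.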

Additional observations from a re-analysis of the deposited data

Results flagged for a closer look

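Within 24 groups of 6 values (each arm's values and the differences by day, per gene), 6 held 1 value apart from the rest by Dixon's test. Chance does this in about 1 of 20 groups of independent values. The differences are built from the values of the arms and the days are ordered, so that rate is only a rough guide. Of the 6 values set apart, 5 lay on day 2. Cdh1 with AGi read 7.53 on day 2, the nearest other day being 10.43, and its difference between the arms was −0.28 there, with 1.82 as the nearest. Cdh6 with OKSM alone read 7.56 on day 2 (nearest 8.72). Cdh13 read 9.12 on day 2 with OKSM alone (nearest 10.25) and 8.62 with AGi (nearest 9.55). Cdh3 with AGi stood apart on day 4, at 7.73 (nearest 9.07).

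The change per day differed between the arms for Cdh5, by −0.18 log2 per day, and for Cdh6, by −0.26, in the test of that difference (limma).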

How the results depend on the processing

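Every member call on the AGi effect kept its direction in the alternatives run; the cause of lost calls was not tested. With days 2 to 6 only, which leaves fewer arrays, 0 members were called higher with limma (2 at an unadjusted p under 0.05) and 3 lower, with 5.76% and 7.46% of all genes; lost were Cdh1 (1.62, adjusted p = 0.119), Cdh3 (0.95, 0.0805), Cdh6 (−0.63, 0.129) and Cdh13 (−0.53, 0.0647). Against the largest control difference 2 members were called lower and 5.44% of all genes (3.09% higher), with Cdh5 (−0.91, 0.106), Cdh6 (−1.39, 0.0537) and Cdh13 (−0.54, 0.0729) lost. Day is what pairs the arms; with no replicate block, that is without the day term, Cdh13 (−0.54, 0.145) was lost and no other member call. Leaving out each day gave −1.04 to −0.67 for Cdh5. For the slope difference, 1 member was called lower when centred on the controls, 0 in days 8 to 12 minus days 2 to 6 (3 at an unadjusted p under 0.05), 4 for a straight line on the differences by day, 0 with a separate level for days 8 to 12 (2 unadjusted), where all genes called lower were 55, 250, 543 and 0 of 13865 (322 unadjusted for the last) against 180 in the reported fit, and 0 to 3 without each day. Without each day, 40 to 213 of all genes were called lower for the slope difference. For the slope with OKSM alone, 1 member was called higher when centred, where 2.48% of all genes were. With the separate level 0 members were called higher (2 unadjusted), and 0 of all genes (331 unadjusted). Without each day 0 to 2 members were called higher and 0 to 1 lower. Of 13865 genes, 204 to 1019 were called higher and 120 to 474 lower in those fits. For the slope with AGi, 1 member was called lower without the filter on low values, where 5.51% of all genes were. With the separate level 0 members were called higher and 0 lower (1 and 2 unadjusted), and 48 and 34 of all genes. Without each day 0 to 1 members were called higher and 1 to 2 lower. Of 13865 genes, 577 to 1941 were called higher and 305 to 1342 lower in those fits. The difference between pluripotent and MEF arrays moved by more than 1 SD of the 3 arrays for all 8 members with at least 1 used alone. Of 3 values, at least 1 always lies 1 SD or more from their mean, so this outcome was fixed in advance. For Cdh11 the single arrays gave −3.59 (ESCs), −1.85 (Fibroblast-iPSCs) and −5.37 (GMP-iPSCs). For Cdh15 they gave −0.13, −0.17 and −0.16. Cdh5 read near the array median in the reference cells, and how low its probe set can read was not measured.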
